A study of Equus caballus with 4 samples.

Results

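The genes described here are the actins, tropomyosins and tropomodulins of the thin filament, namely *acta1*, *acta2*, *actc1*, *actb*, *tpm1*, *tpm2*, *tpm3*, *tpm4*, *tmod1* and *tmod4*. They were measured in differentiating equine satellite cells, the muscle stem cells of the horse, isolated from m. semitendinosus and kept in culture up to day 3 of differentiation. The HMB-treated cells received β-hydroxy-β-methylbutyrate (HMB, a leucine metabolite) at 50 µM for 24 h and H2O2 at 3 mM in the last 1 h. The control cells had the same H2O2 exposure without HMB, so both groups were oxidatively stressed, and the comparison asks which transcripts differ when HMB was present before and during the stress. The members were chosen by symbol: a probe was taken when the gene name in the array annotation was equal to 1 of the 10 symbols. This gave 19 probes of 8 genes (ACTA1, ACTA2, ACTC1, ACTB, TPM1, TPM2, TPM3, TMOD1), out of 43603 probes with 24998 different names. TPM4 and TMOD4 had no probe under their symbol.

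Labelled cRNA was hybridised on 4 two-colour arrays of 1 slide, with that of HMB-treated cells in Cy5 and that of control cells in Cy3 on each of them. No array had the dyes exchanged, so the treatment and the dye cannot be told apart. The labels number the HMB-treated replicates from 1 to 4 but give replicate 1 for the control on every array, and the methods state that 1 culture was selected after isolation from all horses. The p-values therefore measure the spread between these arrays, which may not include the spread between horses or between control cultures. Values are log2 ratios of HMB-treated over control. Of 24669 tested probes, 28.6% were called, which means an adjusted p of 0.05 or less and a fold change (FC) of 1.3 or more, equal to 0.38 on the log2 scale. Lower values were called for 16.4% and higher values for 12.1% of the tested probes. The higher calls made up 42.5% of all calls, and this share was 55.0% with normexp background correction and loess, 60.1% with loess alone, and 6.72% after subtraction of the spike-in offset. Ratios of the 4 arrays were correlated with r between 0.84 and 0.92 across tested probes, which are not independent replicates. On each array 57.6 to 60.6% of the spots were well above background in Cy3 and 55.2 to 61.8% in Cy5.

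Actin monomers polymerise into the thin filament, along which tropomyosin dimers lie and control the access of myosin. Tropomodulins cap the pointed ends of the filament and bind both actin and tropomyosin. Skeletal muscle uses *acta1*, while *actc1* (the cardiac actin) and *acta2* (the smooth muscle actin) are also made in developing muscle fibres, and *actb* is a cytoplasmic actin of most cells. Tropomyosin genes give rise to muscle and cytoskeletal isoforms through alternative exons, in *tpm1* and *tpm3* including alternative last exons. The files give no exon or isoform for a probe.

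Several probes are shown to describe what was measured, and whether they also bind transcripts of related genes was not tested. Each is 60 bases long and is printed 5′ to 3′ as the scanner files give it. The first set holds the *acta1* and *tmod1* probes, which were called lower, and the *actb* probe.
ACTA1 A_69_P096022: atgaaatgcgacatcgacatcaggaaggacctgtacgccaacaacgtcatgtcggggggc
ACTB A_69_P001116: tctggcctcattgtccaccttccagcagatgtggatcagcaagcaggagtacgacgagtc
TMOD1 A_69_P013076: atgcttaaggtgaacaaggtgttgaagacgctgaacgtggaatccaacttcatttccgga

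The second set is shown because the probes contain AATAAA, the best known polyadenylation signal, given in capitals within a window of 30 bases. Both *tpm3* probe regions with different ratios near the 3′ end of the gene, described below, are among them.
TPM3 A_69_P123406: gtgtctttttgaAATAAAgaaccagtccct
TPM3 A_69_P123551: atgctttctaacAATAAAaggactgacctg
TPM1 A_69_P129476: ttcatttcagtgtaaAATAAAcactgtgga
ACTA2 A_69_P003771: ttttttAATAAAtctgaactatgtcaccgg
TMOD4 A_69_P075851: cctcatctatccctctttcctgtaAATAAA
The letters AATAAA occurred as printed in 3 of the 19 probes, and in 8.64% of all 43603 probes. On the opposite strand they occurred in 0 of the 19 and in 3.66% of all probes. The match is a description of the probe and does not show that a transcript ends there.

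Of the 19 probes, 5 were called, all of them lower in HMB-treated cells: the single probes of *acta1*, *actc1* and *tmod1* and a pair of *tpm3* probes. All 19 probes were tested, but 1 of the *tpm3* probes passed the filter through the control channel alone, and 4 probes were called where both channels had to be above background. The called share was 26.3%, close to the 28.6% of all tested probes, and the share of lower calls was also 26.3%, against 16.4% of all. No probe was called higher, and at an unadjusted p under 0.05 in limma 1 probe was higher. The median log2 ratio was -0.10 over the 19 probes and -0.07 over all tested probes. Overlapping probes and probes of 1 gene are counted separately here, so these shares do not describe independent genes.

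**Figure D1:**
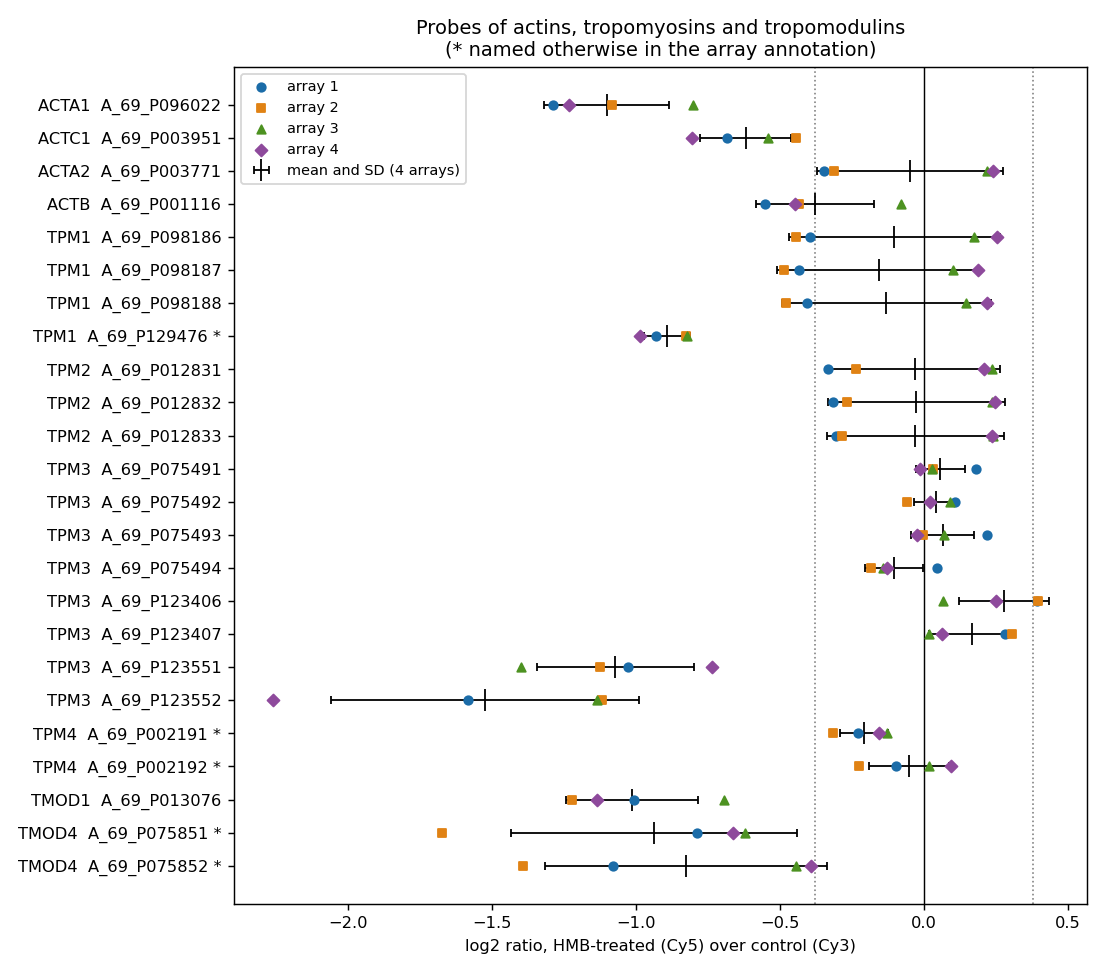
Log2 ratio of HMB-treated over control (x axis) for each probe (y axis), with 1 symbol per array and the mean and SD over 4 arrays; dotted lines mark an FC of 1.3 in either direction, and an asterisk marks the 5 probes that carry another name in the array annotation. The ACTA1, ACTC1 and TMOD1 probes and 2 of the 8 TPM3 probes lie below the left dotted line by their means. The TPM3 probe A_69_P123552 among them passed the filter through the control channel alone. The named TPM1 probes and the TPM2 probes lie on both sides of 0.

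Among the sarcomeric actins, the skeletal muscle actin *acta1* (ACTA1, A_69_P096022, chromosome Un, the sequence not placed on a chromosome, 242448913 to 242448972 on EquCab1) fell to less than the control level on every array. The log2 ratios were -1.29, -1.08, -0.80 and -1.23 on arrays 1 to 4. The control signal of this probe was between 60999 and 69617 and the HMB signal between 25973 and 39905, so the groups did not overlap. The mean was -1.10 ± 0.22 (SD, n = 4), an FC of 2.15 (limma, adjusted p = 0.000301). The probe was called lower under all 15 alternative settings, with values between -1.59 and -0.69. These 15 settings use the same arrays, and the authors' table among them holds the same ratios, so they are not independent.

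The cardiac actin *actc1* (ACTC1, A_69_P003951, chromosome 1, 150271137 to 150271196) had log2 ratios of -0.69, -0.45, -0.54 and -0.80. All of them were below 0, and the control signals (224091 to 287528) lay above the HMB signals (140365 to 197784). The mean was -0.62 ± 0.16 (SD, n = 4), an FC of 1.54 (limma, adjusted p = 0.00149). This direction depended on the normalization: with background-subtracted signals centred on the median and no lowess step, the ratio was 0.24. With normexp and loess it was -0.30 and with loess alone -0.35, and neither reached the FC threshold. The call was also lost by limma's treat (adjusted p = 0.083), and it was kept under 11 of the 15 alternative settings.

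The cytoplasmic *actb* (ACTB, A_69_P001116, chromosome Un, 136490322 to 136490381), a common reference gene, had log2 ratios of -0.55, -0.43, -0.08 and -0.45. Array 3 lay closest to 0. The mean of -0.38 ± 0.21 (SD, n = 4) passed the adjusted p (0.016, limma) but its FC was 1.2999, just under 1.3, so the probe was not called. Without replicate 3 it was called lower at -0.48, with GC content correction at -0.43 and after subtraction of the spike-in offset at -0.87. With median-centred signals without lowess it was called higher at 0.41. The control and HMB signals overlapped, at 152572 to 188092 and 111787 to 177823.

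The smooth muscle actin *acta2* (ACTA2, A_69_P003771, chromosome 1, 38701660 to 38701719) did not pass the test. Its log2 ratios were -0.35 and -0.31 on arrays 1 and 2 and 0.22 and 0.24 on arrays 3 and 4. The mean was -0.05 ± 0.32 (SD, n = 4), with a 95% interval from -0.35 to 0.25 (limma, adjusted p = 0.77). The arrays thus differed in sign, and on the deposited ratios the interval lay within the FC threshold of 1.3 in both directions. After subtraction of the spike-in offset the probe was called lower at -0.54 (limma, adjusted p = 0.0095).

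**Figure D2:**
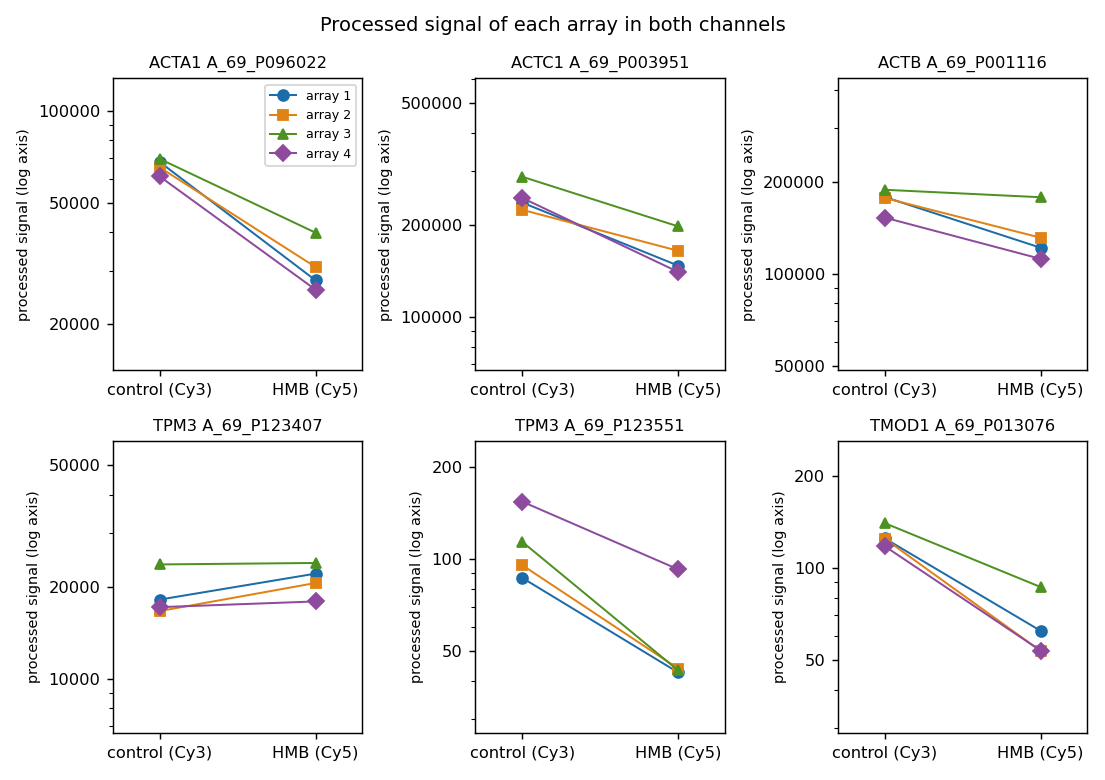
Processed signal (y axis, log scale, each panel with its own range of the same height in fold) of 6 probes in the control channel (Cy3) and the HMB channel (Cy5), with 1 line per array. All 4 lines fall for ACTA1, ACTC1, TMOD1 and the TPM3 probe A_69_P123551, whereas all 4 lines of the TPM3 probe A_69_P123407 rise slightly, by log2 ratios between 0.02 and 0.31.

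The 3 probes of *tpm1* (TPM1, chromosome 1, between 126283841 and 126283961, minus strand), an alpha tropomyosin gene, and the 3 probes of the beta tropomyosin gene *tpm2* (TPM2, between 34644233 and 34644784 on chromosome 25) were not called. For *tpm1* the log2 ratios were between -0.49 and -0.39 on arrays 1 and 2 and between 0.10 and 0.25 on arrays 3 and 4. For *tpm2* they were between -0.33 and -0.24 on arrays 1 and 2 and between 0.21 and 0.25 on arrays 3 and 4. The means were -0.16 to -0.10 for *tpm1* (adjusted p 0.37 to 0.57, limma) and close to -0.03 for all *tpm2* probes (adjusted p 0.85 to 0.87). The same split of signs as in *acta2* was thus seen in 7 of the 19 probes. These are the *acta2* probe and all named *tpm1* and *tpm2* probes, many of which overlap, so they are not 7 independent values. The split was found in 737 of 24647 tested probes with 4 ratios (2.99%), and the opposite split in 961 (3.9%). After subtraction of the spike-in offset all these *tpm1* and *tpm2* probes were called lower, at -0.65 to -0.51.

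Probes of *tpm1* and of *tpm2* gave nearly the same ratios within each gene. The largest difference between 2 probes was 0.05 for *tpm1* and 0.004 for *tpm2* on the log2 scale, and 0 of the 6 pairs were called as disagreeing (limma), with 1 pair at an unadjusted p under 0.05. The *tpm2* probes are shifted against each other by single bases and share 58 or 59 of their 60 bases, and adjacent *tpm1* probes share 30. They therefore repeat largely the same measurement.

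The 8 probes of *tpm3* (TPM3, chromosome Un, minus strand), which encodes a slow muscle tropomyosin and cytoskeletal tropomyosins, did not behave alike. A group of 4 probes, each covering 243 to 1097 bases of the genome with its 60 bases (A_69_P075491 to A_69_P075494, between 82958610 and 82960655) had mean log2 ratios from -0.10 to 0.07. Their values on single arrays lay between -0.19 and 0.22, and none passed the test (limma, adjusted p 0.25 to 0.62).

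The most downstream *tpm3* probes were slightly higher in HMB-treated cells. For A_69_P123406 (82948856 to 82948912) the log2 ratios were 0.39, 0.40, 0.07 and 0.25, with a mean of 0.28 ± 0.16 (SD, n = 4), which passed the adjusted p (0.029, limma) but not the FC threshold. For A_69_P123407 (82948915 to 82948974) they were 0.28, 0.31, 0.02 and 0.06, with a mean of 0.17 ± 0.15 (SD, n = 4; limma, adjusted p = 0.12). Both probes were above 0 on all 4 arrays. With median-centred signals without lowess A_69_P123406 was called higher at 0.41, and after subtraction of the spike-in offset both were below 0, at -0.21 and -0.32.

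Between these regions, 2266 and 2326 bases upstream of the last probe, a further pair of *tpm3* probes fell. A_69_P123551 (82951122 to 82951181) had log2 ratios of -1.03, -1.12, -1.40 and -0.74, with a mean of -1.07 ± 0.27 (SD, n = 4) and an FC of 2.10 (limma, adjusted p = 0.000622). A_69_P123552 (82951182 to 82951241) had log2 ratios of -1.58, -1.12, -1.14 and -2.26, with a mean of -1.52 ± 0.54 (SD, n = 4). Both were below 0 on every array, but they were dim. The control signals of A_69_P123551 were 86.9 to 154, and those of A_69_P123552 were 47.0 to 64.3. In Cy5, A_69_P123552 was well above background on only 1 of 4 arrays, so it passed the filter through the channel in which it was high, its ratio is not a measured size, and no FC or p is given for it. With normexp background correction the ratios were -0.37 and -0.33, and neither probe was called.

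The difference between probes was tested directly for every pair of tested probes that share a gene name, and a pair disagreed at an adjusted p of 0.05 or less and a difference of 0.38 or more on the log2 scale. Of 23875 pairs, 1.03% disagreed, and of the 34 pairs within member genes 10 disagreed, all of them in *tpm3*. All 10 were pairs of a *tpm3* probe that fell with 1 of the other 6. Of these, 6 involved A_69_P123551, with differences between 0.97 and 1.35 and adjusted p between 0.022 and 0.037 (limma). The other 4 involved A_69_P123552, which was near background in Cy5, and are counted without a size; 6 pairs were left where both channels had to be above background. The 16 pairs within the fallen probes or within the other 6 did not disagree by both conditions, although A_69_P075493 and A_69_P075494 differed by 0.17 with an adjusted p of 0.048 (limma). For A_69_P123551 and A_69_P123406, the difference was 1.42, 1.52, 1.46 and 0.99 on arrays 1 to 4. These pairs share probes, and the 8 probes are annotated to 4 transcript models, so the 10 pairs are not independent. The adjusted p lay close to the threshold: leaving out 1 array left 0, 0, 0 and 3 disagreeing pairs without replicates 1, 2, 3 and 4, respectively, and the methods' t-test, normexp with loess and the test without a filter on dim probes left 0, with 22, 18 and 21 member pairs at an unadjusted p under 0.05 (22 in limma on the deposited ratios). The 6 differences of A_69_P123551 had the same direction on all 4 arrays.

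**Figure D3:**
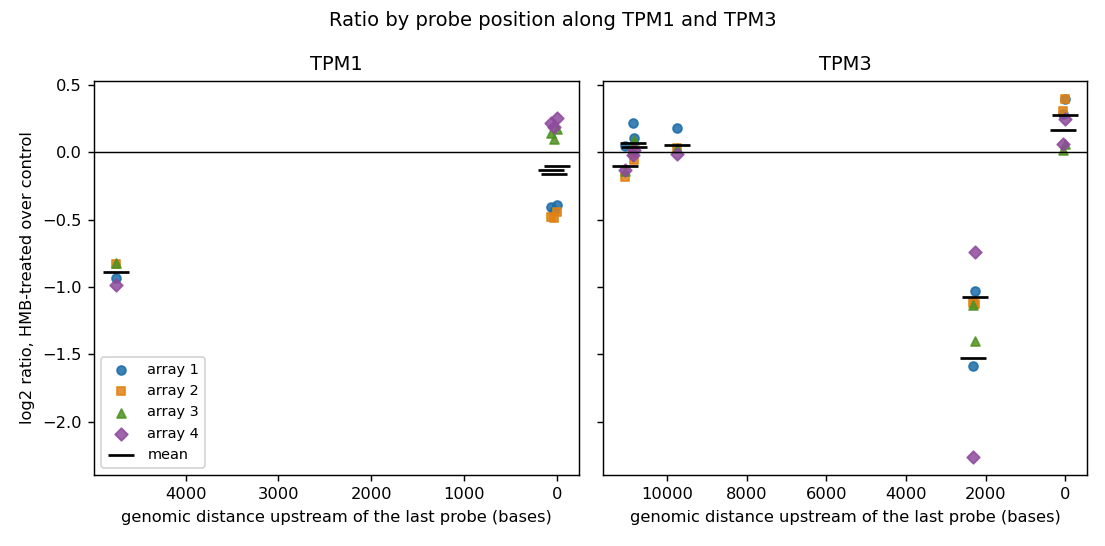
Log2 ratio (y axis) of each TPM1 probe (left) and TPM3 probe (right) against its genomic distance in bases from the most downstream probe of the gene (x axis, transcription from left to right), with 1 symbol per array and a bar for the mean. In TPM3 the probes 2266 and 2326 bases upstream of the last one lie below the probes on both sides of them. The probe at 2326 bases, A_69_P123552, passed the filter through the control channel alone. In TPM1 the unnamed probe 4751 bases upstream lies below the 3 named probes.

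An unnamed probe in the *tpm1* region was read in addition, after its values had been seen. A_69_P129476 (chromosome 1, 126288592 to 126288651, minus strand) has no gene name in the array annotation, lies 4751 bases upstream of the last *tpm1* probe on the same strand, and is given as *tpm1* in the gene list of the study. Its log2 ratios were -0.93, -0.83, -0.82 and -0.99, all lower, with a mean of -0.89 ± 0.08 (SD, n = 4), an FC of 1.86 (limma, adjusted p = 0.00015). With median-centred signals without lowess it was -0.16 and not called. The mean of the 3 named *tpm1* probes exceeded it by 0.52, 0.36, 0.96 and 1.21 on arrays 1 to 4. No test of this difference is given, since the probe was not part of the rule.

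The other symbols without a probe of their own name were also represented. *Tpm4* (TPM4), a mostly cytoskeletal tropomyosin, was identified by the probe description (chromosome Un, 216860876 to 216861001). Its A_69_P002191 had log2 ratios of -0.23, -0.31, -0.13 and -0.16 (mean -0.21 ± 0.08 SD, n = 4), which passed the adjusted p (0.038, limma) without reaching the FC threshold. Its A_69_P002192 had -0.10, -0.22, 0.02 and 0.09, with a mean of -0.05 ± 0.14 (SD, n = 4; limma, adjusted p = 0.59).

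Of the tropomodulins, *tmod1* (TMOD1, A_69_P013076, between 30967139 and 30967198 on chromosome 25) had log2 ratios of -1.01, -1.22, -0.70 and -1.13. All arrays were lower, and the control signals (118 to 140) did not overlap the HMB signals (53.5 to 86.7). The mean was -1.01 ± 0.23 (SD, n = 4), an FC of 2.02 (limma, adjusted p = 0.000486), and the call was kept under all 15 alternative settings with values from -1.50 to -0.45. *Tmod4* (TMOD4), a tropomodulin of skeletal muscle, was identified by the description and by the gene identifier of its probes, which RefSeq pairs with that symbol (chromosome Un, 80381082 to 80381171). A_69_P075851 had log2 ratios of -0.79, -1.68, -0.62 and -0.66 (mean -0.94 ± 0.50 SD, n = 4; limma, adjusted p = 0.00719). A_69_P075852, which shares 30 bases with it, had -1.08, -1.39, -0.44 and -0.39 (mean -0.83 ± 0.49 SD, n = 4; limma, adjusted p = 0.0109). Both were lower on every array and both were called, but array 2 was far below arrays 3 and 4, and the calls were lost under several settings: by the methods' t-test (adjusted p 0.080 and 0.095), by treat, without a filter on dim probes, and with normexp and loess, where the ratios were only -0.29 and -0.31. With loess alone A_69_P075851 was at -0.36 and not called.

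The genes that act on the same filament were counted in lists chosen by function. Of the 15 tested genes of thin filament ends and assembly, 10 (66.7%) were called lower and 1 (6.67%) higher, with a median log2 ratio of -1.11, against 16.4% lower, 12.1% higher and a median of -0.07 over all tested probes. Leiomodins, relatives of the tropomodulins that promote filament assembly, were among them: *lmod3* (LMOD3) was at -1.44 ± 0.17 and *lmod2* (LMOD2) at -1.27 ± 0.22 (SD, n = 4), with adjusted p of 6.22e-05 and 0.000177 (limma). *Klhl41* (KLHL41), which stabilises nebulin, was at -1.30 ± 0.14 (SD, n = 4; limma, adjusted p = 5.91e-05). These 3 genes were called lower under all 15 alternative settings. Among the 10 genes called lower, *xirp2* (XIRP2) passed the filter through the control channel alone. In Cy5 it was well above background on only 1 of 4 arrays, and on array 4 its ratio was 0.58. Where both channels had to be above background, and also without a filter on dim probes, 9 genes of the list were called lower. The paralog *lmod1* (LMOD1), known from smooth muscle, was at -0.30 ± 0.24 (SD, n = 4; limma, adjusted p = 0.050) and was not called, but it was called lower without replicate 3 (-0.38) and after subtraction of the spike-in offset (-0.79). The widely expressed *tmod3* (TMOD3) was at 0.15 ± 0.28 (SD, n = 4; limma, adjusted p = 0.33), and at -0.34 after subtraction of the spike-in offset. Whether these paralogs differ from *lmod2* and *lmod3* was not tested. *Tmod2* was on the array but not tested, because its signal was too low.

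Of the 19 tested genes of monomer binding and filament turnover, 3 (15.8%) were called lower and 1 (5.26%) higher. The other 15 were not called, and the median was -0.09. The share of lower calls was near the 16.4% of all tested probes, of which 12.1% were called higher. The muscle cofilin *cfl2* (CFL2), which severs filaments, was at -0.74 ± 0.14, and *cap2* (CAP2), a cyclase-associated protein of striated muscle, at -0.93 ± 0.11 (SD, n = 4; limma, adjusted p = 0.000607 and 0.00016). The non-muscle cofilin *cfl1* (CFL1) was higher at 0.49 ± 0.07 (SD, n = 4; limma, adjusted p = 0.00148), but after subtraction of the spike-in offset it was at -0.00080.

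The list with other actins, bundling and smooth muscle contractile proteins and the cofactors of SRF had 11 tested genes. Of these, 4 (36.4%) were called lower, 1 (9.09%) higher and 6 were not called, with a median of -0.14. Over all tested probes, 16.4% were called lower and 12.1% higher, with a median of -0.07. The enteric smooth muscle actin *actg2* (ACTG2) was at -0.90 ± 0.18 (SD, n = 4; limma, adjusted p = 0.00041) and all 5 of its tested probes were called; with median-centred signals without lowess its ratio was -0.40. *Mylk* (MYLK), the kinase of myosin light chains, was at -0.73 ± 0.59, and *smtn* (SMTN), smoothelin, at -0.59 ± 0.25 (SD, n = 4; limma, adjusted p = 0.029 and 0.0053). *Smtn* lost its call by the methods' t-test (adjusted p = 0.057) and by treat, and with normexp and with loess alone its ratio was -0.25 and -0.30 and not called. *Mylk* was called in only 1 of the 4 fits that left out an array, the one without replicate 3 (-0.95, against -0.82 to -0.51 in the others). It also lost its call by the methods' t-test (adjusted p = 0.155), by treat and without a filter on dim probes. With normexp and with loess alone its ratio was -0.35 and -0.38 and not called. *Mylk* was called under 7 of the 15 alternative settings. *Actg1*, the other cytoplasmic actin, had no probe under its symbol.

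**Figure D4:**
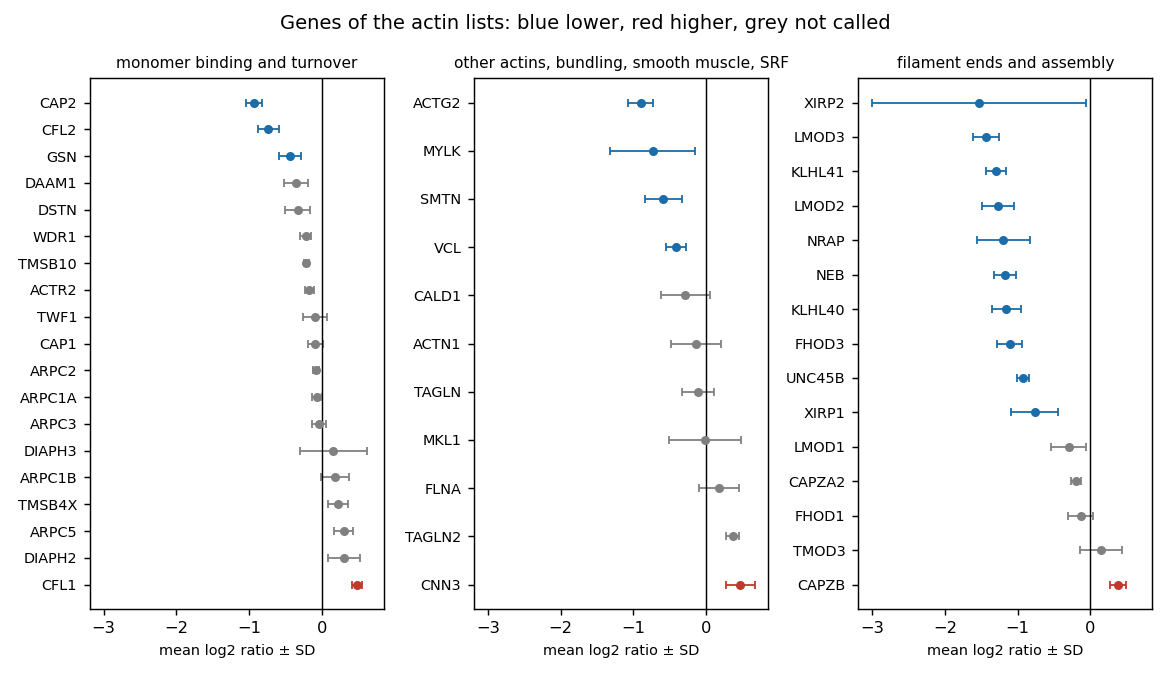
Mean log2 ratio with SD over 4 arrays (x axis) of every tested gene (y axis) in 3 lists of actin-related genes, with blue for called lower, red for called higher and grey for not called. In the list of filament ends and assembly 10 of 15 genes are blue, and in the other lists 3 of 19 and 4 of 11. Of all tested probes, 16.4% were called lower.

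Markers of cell types were read beside these genes. Of 6 tested myogenic markers, 4 (*ckm*, *des*, *myf5* and *myh3*; 66.7%, against 16.4% of all tested probes) were called lower and 0 higher. *Myog* (MYOG) was at 0.03 ± 0.22 (SD, n = 4). *Myod1* (MYOD1) was at 0.32 ± 0.25 (SD, n = 4), above 0 on 3 of 4 arrays, with an adjusted p of 0.044 (limma) but below the FC threshold. *Pax7* had no probe under its symbol. The summed signal of the list, of which *myh3* and *des* made up at least 90.0%, was 105056 to 118895 in the control channel and 37249.5 to 60609.5 in the HMB channel. Of 7 tested fibroblast markers, 4 (*dcn*, *lum*, *pdgfra* and *thy1*; 57.1%, against 12.1% of all tested probes) were called higher and 0 lower. Not called were *col1a2* at -0.23 ± 0.34, *col3a1* at 0.06 ± 0.29 and *postn* at 0.37 ± 0.99 (SD, n = 4). Each of them had both signs among the arrays. Of the 7 tested probes of *col3a1*, 3 were called, but not the brightest. The summed signal of the fibroblast list, of which *col1a2*, *col3a1* and *dcn* made up at least 96.3%, was 413499 to 503755 in the control and 405757 to 633773 in the HMB channel. Of the other lists, 1 of 6 markers of smooth muscle and pericytes, 2 of 6 of leukocytes and 0 of 5 of endothelium were tested, and *pdgfrb* and *cd14* were not called while *cd68* was called higher. The probes of *myh11*, *rgs5*, *mcam*, *csf1r*, *itgam*, *aif1* and all 5 endothelial markers were too dim to be tested. Whether the fall of the called muscle genes follows the share of muscle cells was not tested, and fewer cells of a type and less RNA per cell cannot be told apart in such RNA.

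**Figure D5:**
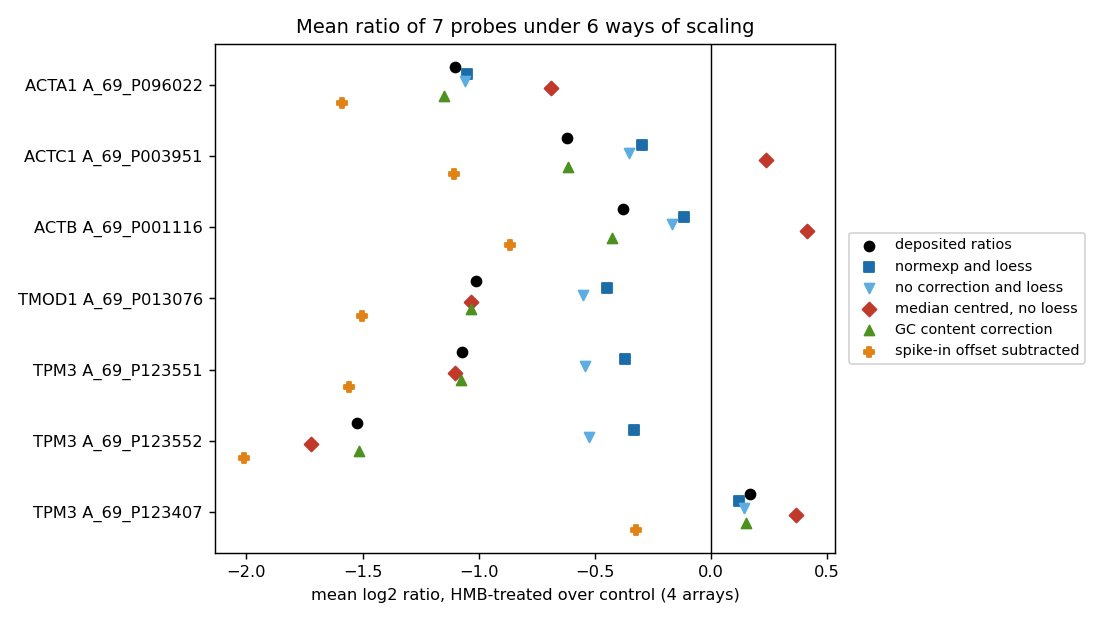
Mean log2 ratio over 4 arrays (x axis) of 7 probes (y axis) under 6 ways of scaling the same arrays. ACTA1, TMOD1 and the TPM3 probe A_69_P123551 stay below 0 under all 6. ACTC1 and ACTB lie above 0 with median-centred signals without lowess, and the TPM3 probe A_69_P123407 lies below 0 after subtraction of the spike-in offset. The TPM3 probe A_69_P123552 passed the filter through the control channel alone, so its place below 0 is not a measured size and no support.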

How the data were processed

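Total RNA of HMB-treated and control cells was amplified and labelled, and the cRNA was hybridised on 4 horse arrays (Agilent, 60-base probes) whose annotation uses EquCab1. For the intensity values, the authors deposited scanner files from Feature Extraction 10.10.1.1, with background-subtracted signals and signals after linear and lowess normalization. The log10 ratios in the deposited files are Cy5 over Cy3, and the authors' table holds the same ratios within 3.96e-05. The series table was matched by column name.

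Here the log10 ratios were changed to log2. Spots of control probes and spots with an outlier mark (non-uniform or population) were left out (13 to 35 spots per array); 0 spots were saturated. A probe was tested if 1 or both channels were well above background on all 4 arrays and at least 3 ratios were left. Ratios were tested against 0 with limma 3.58.1 in R 4.3.3 (intercept, empirical Bayes) and Benjamini-Hochberg adjustment over 24669 probes, and differences between probes of 1 gene likewise over 23875 pairs. A list gene was represented by the brightest of its tested probes (mean over arrays and channels). Named are every member probe, the 3 called genes of each list with the largest change and 1 sign on all arrays, and paralogs of members. *Ckm*, *des* and the other markers are named as list members, and *xirp2* is named because of the filter it passed. The members, lists and alternatives were chosen with earlier results of these data known. The tests were tried on simulated data. The number of arrays limits the precision. The alternatives comprised limma's treat, the methods' t-test, normexp (offset 50) or no background correction with loess, median centring, GC correction, spike-in scaling, other filters, the authors' table, and each replicate left out.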

Additional observations from a re-analysis of the deposited data

Results flagged for a closer look

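Among 45 values examined (the member probes, the other probes named above, the named list genes and the 10 disagreeing pairs), 1 had an array that stood apart from the other 3 by more than the critical gap for 4 values; chance gives about 1 in 20. It was the *tmod4* probe A_69_P075851, with -1.68 on array 2 against -0.79 to -0.62 on the others, a gap of 0.841 of the whole range. The overlapping *tmod4* probe was also lowest on array 2, at -1.39.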

How the results depend on the processing

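Of the 284 values of member probes under alternative settings, 262 kept their side of the thresholds, 5 lost and 12 gained a call without a change of sign, and 5 that were called in either fit changed sign. A further 18 values that were called in neither fit, counted among the 262, also changed sign. The settings are not independent, since the authors' table holds the same ratios and several settings change only the test or the filter. With median-centred signals without lowess *actb* turned to 0.41 and *actc1* to 0.24, and after subtraction of the spike-in offset the *tpm3* probes A_69_P075491, A_69_P075492 and A_69_P075493 turned to -0.43, -0.45 and -0.42, and *cfl1* to -0.00080; these normalizations differ by construction in a trend with intensity or a constant per array. The spike-in offset was 0.37 to 0.57 (log2), moved the median of all tested probes from -0.07 to -0.56, and gave 18570 called probes, 17 called member probes and 33 called list genes, against 7046, 5 and 20. Normexp with loess gave 3538 called probes, 2 called member probes (*acta1* and *tmod1*) and 0 disagreeing member pairs, and loess without background correction 4439 called probes. Limma's treat gave 2822 called probes and 11 called list genes. The methods' t-test gave 0 disagreeing pairs in all and 0 among the members, with 4530 and 22 pairs at an unadjusted p under 0.05. Member pairs that disagreed numbered 6 with both channels well above background, where A_69_P123552 was not tested, and 0 without a filter. Without 1 array in turn, 2 to 66 pairs disagreed in all and 0 to 3 among the members, and called member probes numbered 5 to 6. The cause of these differences was not tested. The tests of ratios against 0 used the pairing, because each ratio pairs the 2 channels of an array, and there is 1 group of ratios. Dim probes such as those of *tmod1*, *tmod4* and the fallen *tpm3* pair limit the sizes of the ratios.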
